A study of Mus musculus with 24 samples.

Results

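The circadian clock genes of the mouse visual cortex are described here in 24 mice that received psilocybin or vehicle and were kept in the dark or placed in light. The members were chosen by name, although earlier results of these data were known at the time. They are the activators Bmal1 (also named Arntl) and Clock, the period genes Per1, Per2 and Per3, and the cryptochromes Cry1 and Cry2. The others are the nuclear receptors Nr1d1 and Nr1d2 and the output factor Dbp. All 10 were found among the 55414 genes of the count table, and all 10 passed the filter on low counts (a highest count of at least 30), as did 14464 genes in all. All animals were C57BL/6J male mice, 8 weeks old, housed in a reversed cycle with lights off at 7:00 and on at 19:00, with no transgene. The 4 groups of 6 mice were dark (PBS, kept in the dark), light (PBS, placed in light), psilocybin-dark (5 mg/kg psilocybin intraperitoneally, kept in the dark) and psilocybin-light (5 mg/kg psilocybin, placed in light). The experiment ran from 12:00 to 14:30, all within the dark phase, and mice were killed after 2.5 h, which was 7.5 h after lights off. With a single time of day, the level of a gene is given here and not its rhythm.

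The light exposure of the libraries was given in opposite ways by the 2 available sources. The headings of the supplementary count table, followed here, give dark for libraries 1 to 6, psilocybin-dark for 7 to 12, light for 13 to 18 and psilocybin-light for 19 to 24. In the sample labels each library has this drug too, but light where the headings have dark and dark where they have light. Under the labels, each light-minus-dark difference below would take the other sign, the interaction would change sign, and the psilocybin effect given for dark would belong to light and that given for light to dark. Psilocybin-light against dark would become psilocybin in the dark against light alone. Psilocybin-dark against light would become psilocybin with light against dark. The mice called dark below, libraries 1 to 6, would be the light group. Sets of libraries, and therefore the sizes of the differences and their p-values, are the same under both.

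In the molecular clock, BMAL1 and CLOCK form a heterodimer that binds E-boxes and activates transcription of the Per and Cry genes, whose protein products later repress that dimer. A further loop runs through the nuclear receptors REV-ERB alpha and REV-ERB beta (Nr1d1 and Nr1d2), which repress Bmal1, while the ROR receptors activate it. DBP, a transcription factor that is itself an E-box target, activates genes through D-boxes, among them period genes. The master clock lies in the suprachiasmatic nucleus of the hypothalamus and is set by light through the retina. Cortical cells run clocks of their own, and Per1 and Per2 are also known as genes that respond to cAMP and calcium signalling.

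The sequences before the starts of the 3 period genes are shown because each holds an E-box or a D-box and Per3 had the largest difference from dark mice. Windows of 250 bases before the start of the canonical transcript (GENCODE vM39, GRCm39) were searched on both strands for the E-box CACGTG, the D-box TTATGTAA or TTACGTAA, the ROR element core TAGGTCA or TGGGTCA, and the cAMP response element TGACGTCA, none of which contains another. Capitals mark the matches, and only stretches outside annotated exons are printed, 5′ to 3′ on the strand of the gene.
Per1, chr11:68989018-68989267, plus strand: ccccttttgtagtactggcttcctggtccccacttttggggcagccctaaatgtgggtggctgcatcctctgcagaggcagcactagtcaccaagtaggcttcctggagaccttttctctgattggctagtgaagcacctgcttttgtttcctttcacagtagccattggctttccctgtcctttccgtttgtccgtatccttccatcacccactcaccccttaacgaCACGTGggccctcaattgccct
Per2, chr1:91387070-91387296, minus strand: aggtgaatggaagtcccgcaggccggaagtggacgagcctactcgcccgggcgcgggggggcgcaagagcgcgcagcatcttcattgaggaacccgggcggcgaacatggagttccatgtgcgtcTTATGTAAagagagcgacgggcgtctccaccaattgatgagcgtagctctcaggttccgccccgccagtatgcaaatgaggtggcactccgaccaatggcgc
Per3, chr4:151129141-151129302, minus strand: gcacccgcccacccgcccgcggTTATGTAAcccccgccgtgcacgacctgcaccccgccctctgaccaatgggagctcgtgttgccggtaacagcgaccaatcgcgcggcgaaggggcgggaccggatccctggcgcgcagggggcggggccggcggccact

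The Per1 window lies between exons of longer annotated Per1 transcripts and holds an E-box 22 to 17 bases before the start. An E-box was also found 29 to 24 bases before the start of Cry1, whose window is covered by annotated exons and is not printed. Per2 has 1 D-box, 125 to 118 bases before its start, and Per3 has 2, of which the one at 140 to 133 bases is shown and the one at 187 to 180 bases falls in an annotated exon. Dbp has ROR element cores 234 to 228 and 189 to 183 bases before its start. The windows of Bmal1, Clock, Cry2, Nr1d1 and Nr1d2 held none of these letters, and no member's window held the cAMP response element. Other transcript starts, sequence outside the windows and other forms of these motifs were not searched. Among the 21770 promoters of the same length, 6.26% held the E-box, 0.937% a D-box, 5.27% a ROR element core and 1.69% the cAMP response element.

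The libraries held between 13552516 and 17906994 counts, and normalized counts are counts scaled by TMM to the mean effective library size of 16058300. Markers of other brain regions set some libraries apart, which bears on the results. The summed level of 6 cerebellar markers lay between 18331 and 65099 normalized counts in libraries 1 and 6 (dark), 12 (psilocybin-dark) and 18 (light), and between 256 and 1723 in the other 20. No psilocybin-light library was among these 4. The summed level of 9 hippocampal markers lay between 1100.2 and 5589.7 in dark mice and between 465 and 831 in the other 3 groups, and that of 9 cortical markers between 15135 and 37349 in dark mice and between 33046 and 45337 in the others. By median, the largest marker in dark mice was Fibcd1 in the hippocampal sum (1878, beside 140 to 164 in the other groups) and Slc17a7 in the cortical sum (26762). The hippocampal marker Glis3 had its lowest median in dark mice (65.2), and Lct its highest in psilocybin-light mice (16.2, beside 13.7 in dark). The other hippocampal markers had their highest median in dark mice. Compared with dark mice, 6 of 9 cortical markers were higher in each of the other 3 groups, and of the 7 hippocampal markers tested 4 were lower in light, 2 in psilocybin-dark and 5 in psilocybin-light mice. All 6 cerebellar markers were called lower in psilocybin-light than in dark mice. No marker of these 3 lists was at 0 in all libraries, while 6 hypothalamic markers summed to between 3.34 and 17.7. Values are therefore given also for the 20 mice without libraries 1, 6, 12 and 18, an analysis chosen after the data were seen. The dark mice left in that set, libraries 2 to 5, had hippocampal sums from 1989 to 5589.7, above every mouse of the other 3 groups. In that set, the part of these markers in differences from dark mice therefore cannot be told apart from that of the treatments. These 20 mice still hold a psilocybin-light library whose 4 thalamic markers summed to 2934 normalized counts, beside a group median of 874. In dark mice the highest thalamic sum was 2909, and 4 oligodendrocyte markers summed to between 15099 and 103971. In bulk tissue, fewer cells of a type and less RNA per cell cannot be told apart.

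**Figure D1:**
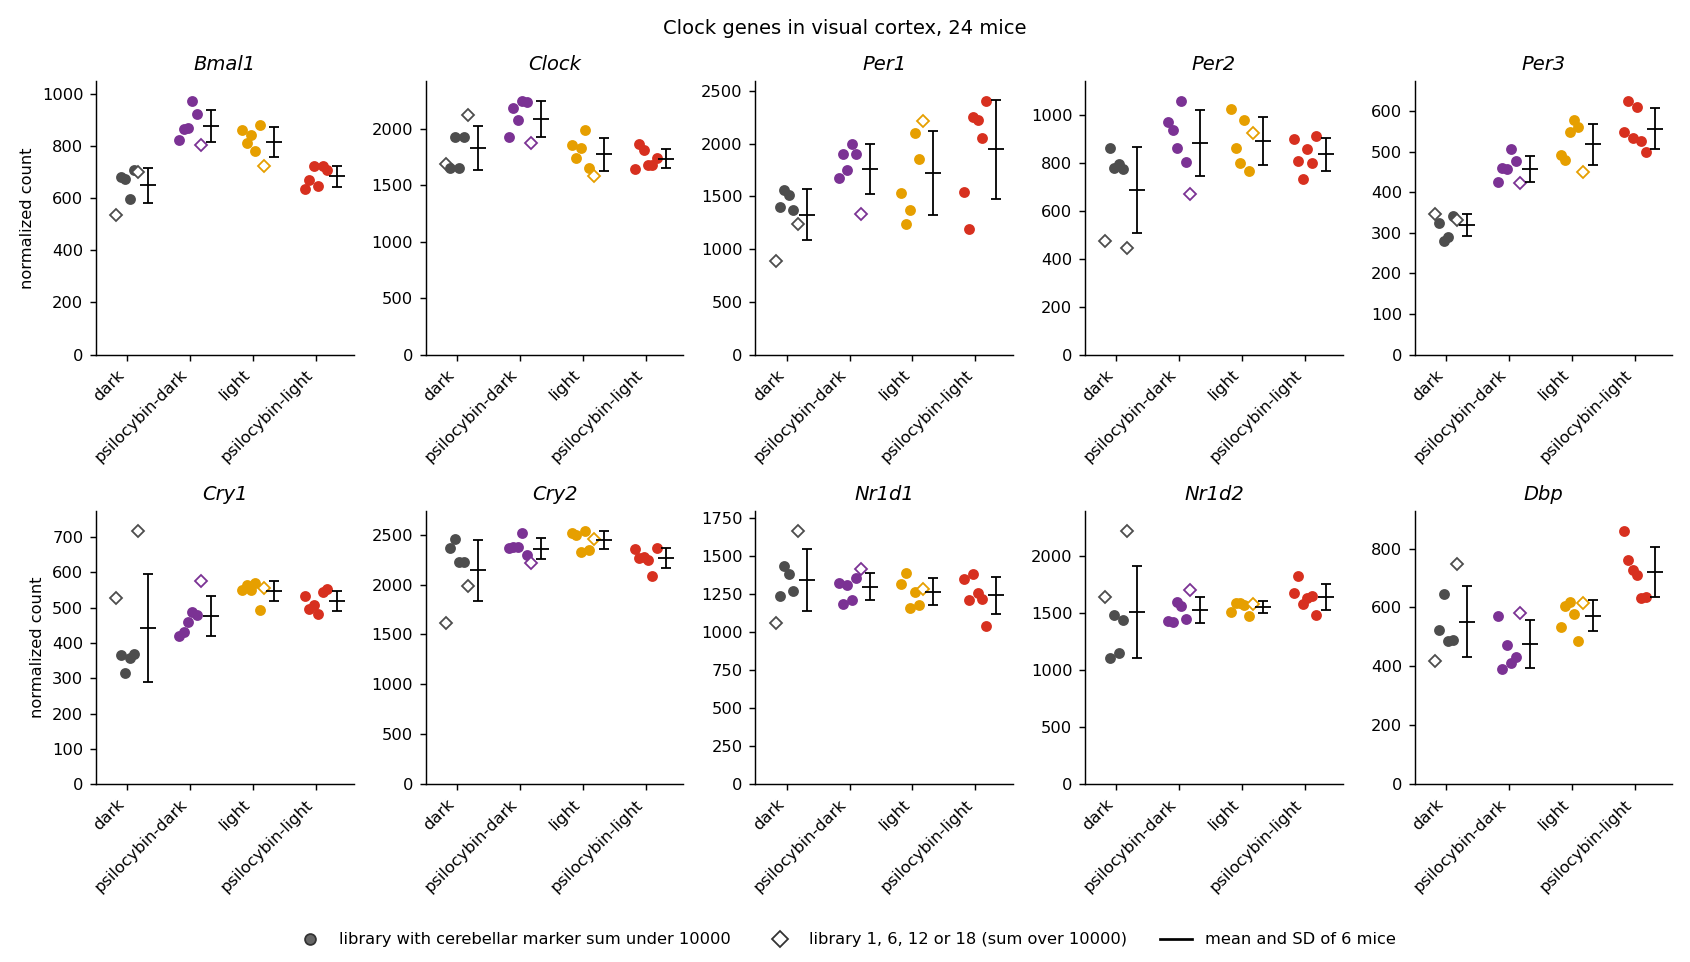
Normalized counts of the 10 clock genes (vertical axes, starting at 0) in each mouse of the 4 groups (horizontal axes). Circles are mice and open diamonds are libraries 1, 6, 12 and 18, and bars give the mean and SD of 6 mice. Dark mice lie below the other 3 groups for Per3, and Bmal1 is lower in dark and psilocybin-light than in the other pair of groups.

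Each pair of groups was compared in 1 fit of edgeR over all 24 mice, and a gene was called where its adjusted p was under 0.05 over the 14464 genes. Between light and dark mice 4 of 10 members were called, against 31.9% of all genes. All 4 were higher in light, a direction taken by 15.4% of all genes. Between psilocybin-dark and dark mice 3 of 10 were called (24.7% of all genes), again all higher (11.9% of all genes). Psilocybin-light mice differed from dark mice in 3 of 10 members, all higher, where 38.4% of all genes were called and 17.4% were called higher. These 3 comparisons share the same dark mice. Psilocybin-light and psilocybin-dark mice differed in 4 of 10 members (6.38% of all genes), 2 higher and 2 lower with light. No member was called between psilocybin-light and light mice (0.608% of all genes) or between psilocybin-dark and light mice (0.456% of all genes). The members called in the comparisons with dark mice were thus no larger a share than that of all genes in psilocybin-light mice, and a similar or slightly larger share in the other 2.

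Groups that did not overlap were counted in the same way. Bmal1 and Per3 had no overlap between light and dark mice, as had 10% of all genes. The same 2 members had none between psilocybin-dark and dark mice (5.58% of all genes), and Per3 alone between psilocybin-light and dark mice (15.8% of all genes). Bmal1 and Dbp did not overlap between psilocybin-light and light mice (1.62% of all genes), and Bmal1, Clock and Dbp did not overlap between psilocybin-light and psilocybin-dark mice (6.42% of all genes).

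In the 20 mice without the cerebellar-marker libraries, more genes of all kinds were called. The counts were then 4 of 10 members for light against dark (42.3% of all genes), 5 for psilocybin-dark against dark (37.6%), 5 for psilocybin-light against dark (47.3%), 1 for psilocybin-light against light (2.25%), 5 for psilocybin-light against psilocybin-dark (16.7%) and 2 for psilocybin-dark against light (5.61%).

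**Figure D2:**
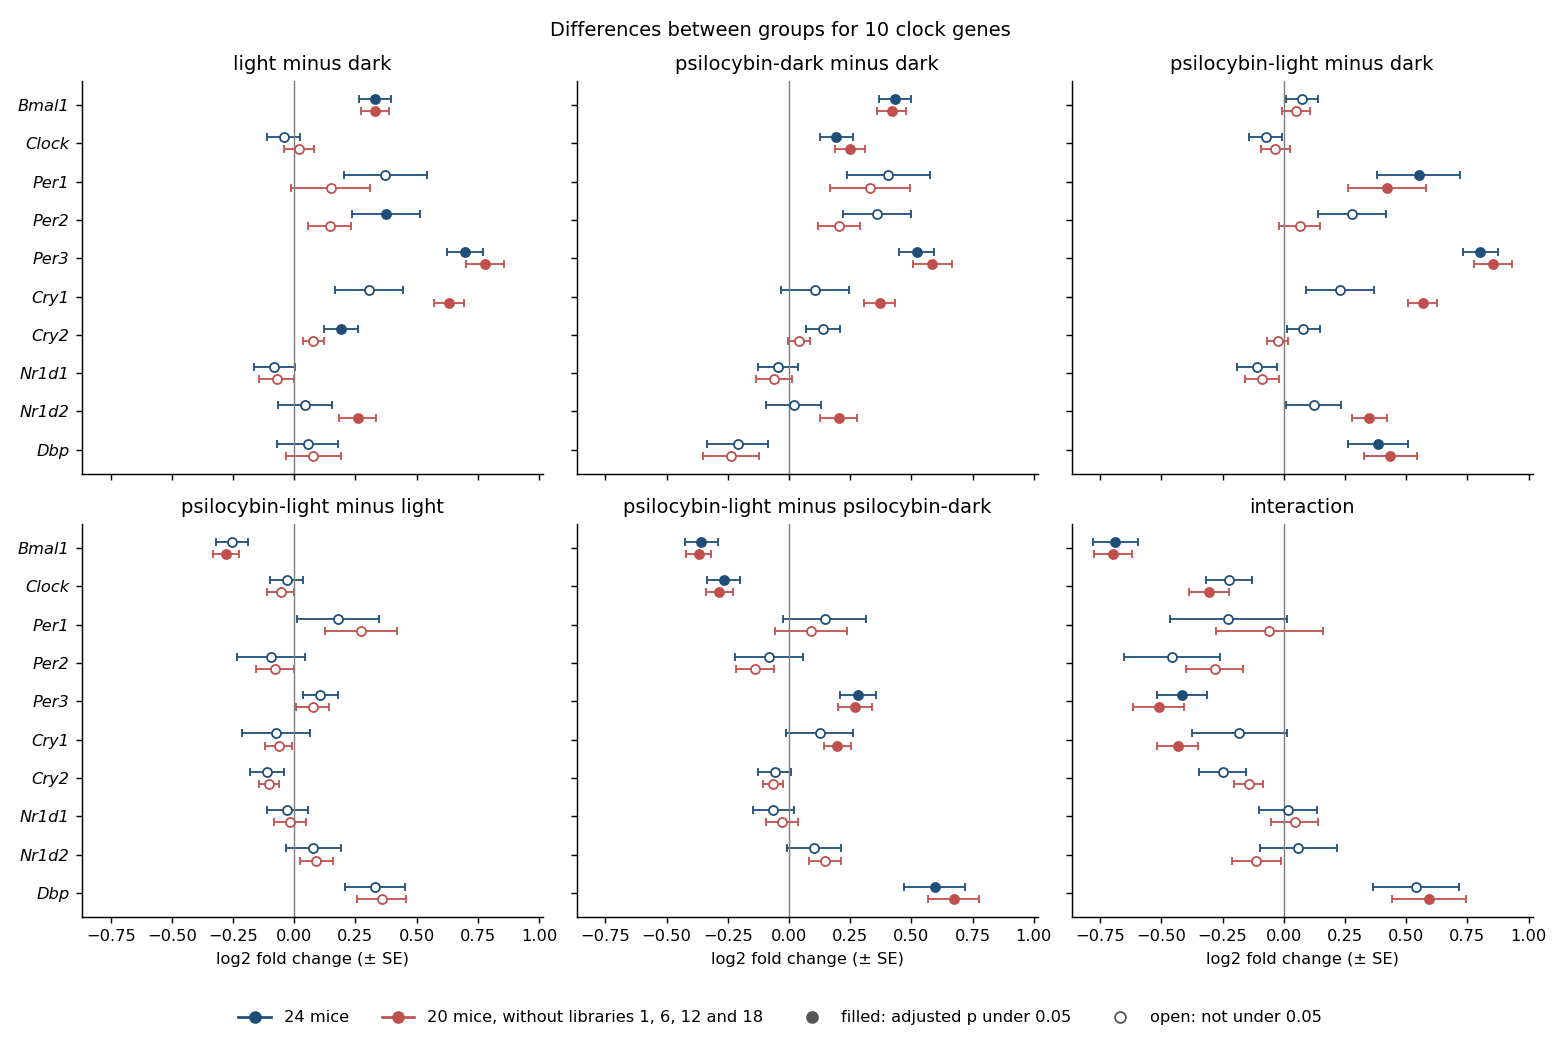
Log2 fold changes of the 10 clock genes with their standard errors (horizontal axes) in 5 comparisons and the interaction, for all 24 mice (blue) and for 20 mice without libraries 1, 6, 12 and 18 (red). Filled points had an adjusted p under 0.05. Bmal1 stays close to its values in both sets, and Per3 lies further from 0 without these libraries in the comparisons with dark and the interaction. In the comparisons with dark, Cry1 and Nr1d2 shift to the right and Per2 and Cry2 to the left, Cry2 past 0 in psilocybin-light mice.

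Bmal1 (chromosome 7, 112806152 to 112914735), the partner that makes CLOCK active, was higher with either treatment alone and not with both together. Dark mice had 537 (lowest), 678 (median) and 707 (highest) normalized counts, and psilocybin-light mice 636, 689.8 and 725. Light mice had 726, 828 and 882, and psilocybin-dark mice 807, 869 and 973. Every light and every psilocybin-dark mouse was thus above every mouse of the other 2 groups. The means were 650.3 ± 67.9 (SD, n = 6) in dark, 818 ± 58.0 in light, 878 ± 62.2 in psilocybin-dark and 685 ± 39.8 in psilocybin-light mice.

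On the log2 scale Bmal1 was higher than in dark mice by 0.33 ± 0.07 (SE) in light mice (adjusted p = 0.000592) and by 0.43 ± 0.07 in psilocybin-dark mice (adjusted p = 7.71e-05). In psilocybin-light mice the difference from dark was 0.08 ± 0.07 (adjusted p = 0.387), with a 95% interval from -0.06 to 0.21. Psilocybin-light mice were lower than psilocybin-dark mice, with a log2 fold change of -0.36 ± 0.07 (adjusted p = 0.00219). Against light mice the log2 fold change was -0.26 ± 0.07, for which the adjusted p of 0.0779 missed the threshold although the groups did not overlap. Over the 20 mice this last difference was -0.28 ± 0.05 and passed the test (adjusted p = 0.00701). In order of level, dark and psilocybin-light mice did not differ beyond their spread, nor did light and psilocybin-dark mice (adjusted p = 0.526).

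Clock (chromosome 5, 76342860 to 76452846), the other subunit of the dimer, was highest in psilocybin-dark mice. Its lowest, median and highest normalized counts were 1649, 1808 and 2118 in dark, 1581, 1785 and 1985 in light, 1869.8, 2129.95 and 2242 in psilocybin-dark and 1643, 1708 and 1867 in psilocybin-light mice. The psilocybin-dark values lay above all psilocybin-light values and overlapped with the dark and light ones. Clock was higher in psilocybin-dark than in dark mice by 0.19 ± 0.07 on the log2 scale (adjusted p = 0.0379) and lower in psilocybin-light than in psilocybin-dark mice, with a log2 fold change of -0.27 ± 0.07 (adjusted p = 0.0179). The first call ended in 7 of 24 fits with 1 mouse left out (libraries 1, 2, 4, 8, 9, 10 and 11), where the adjusted p reached 0.0921, and the second in 1 (library 19, adjusted p = 0.0533). The first call also ended with no filter, with only the compared groups and with the cerebellar markers as a covariate (adjusted p = 0.0808), and its sign turned with the hippocampal markers as a covariate (-0.069, adjusted p = 0.761). The second ended with no filter (adjusted p = 0.0509). Light mice did not differ detectably from dark mice in Clock, with a log2 fold change of -0.04 and a 95% interval from -0.18 to 0.10. With the hippocampal covariate Clock was instead called lower than in dark mice, in light (-0.30, adjusted p = 0.0199) and in psilocybin-light mice (-0.36, adjusted p = 0.00797).

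Per3 (chromosome 4, 151081373 to 151129140), the period gene with the lowest level, showed the largest differences from dark mice of all members. Dark mice had 280.45, 328 and 346 normalized counts, and psilocybin-dark mice 422, 458 and 508. Light mice had 450.2, 519 and 578, and psilocybin-light mice 499, 542 and 624. All 18 mice of the other groups were above the highest dark mouse. Against a dark mean of 319 ± 27.6, light mice were 1.62-fold higher (log2 0.70 ± 0.07, adjusted p = 1.11e-06), psilocybin-dark mice 1.44-fold (log2 0.52 ± 0.07, adjusted p = 3.44e-05) and psilocybin-light mice 1.75-fold (log2 0.80 ± 0.07, adjusted p = 1.05e-07). Psilocybin-light mice were also higher than psilocybin-dark mice, by 0.28 ± 0.07 (adjusted p = 0.0199), a call that ended without library 20 (adjusted p = 0.0551) and with no filter on low counts (adjusted p = 0.0552). Light mice stood between these groups and differed detectably from neither, by adjusted p-values of 0.239 against psilocybin-dark and 0.724 against psilocybin-light mice. For the 20 mice the 3 differences from dark were 0.78, 0.59 and 0.86 on the log2 scale, each with an adjusted p no higher than 9.71e-06.

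Per1 (chromosome 11, 68986035 to 69002300), the period gene best known for rapid induction, was the most variable member among light-exposed mice. It ranged from 886 over a median of 1383 to 1564 normalized counts in dark mice and from 1328 over 1822 to 1998 in psilocybin-dark mice. In light mice it ranged from 1237 over 1693 to 2212, and in psilocybin-light mice from 1192 over 2137 to 2400.1. The groups overlapped in every comparison. Per1 was higher in psilocybin-light than in dark mice by 0.55 ± 0.17 on the log2 scale (adjusted p = 0.0131), and by 0.42 ± 0.16 in the 20 mice (adjusted p = 0.0330). Without only libraries 1 and 6 that difference was 0.40 ± 0.18 and no longer passed (adjusted p = 0.0688), nor did it with the cerebellar (0.48, adjusted p = 0.0519) or the hippocampal markers as a covariate (0.40, adjusted p = 0.426). For light against dark mice the log2 fold change of 0.37 ± 0.17 had an adjusted p of 0.0980 and in the 20 mice it was 0.15 ± 0.16 (adjusted p = 0.495). For psilocybin-dark against dark mice the values were 0.41 ± 0.17 (adjusted p = 0.0842) and 0.33 ± 0.16 (adjusted p = 0.117).

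Per2 (chromosome 1, 91343700 to 91387069), a period gene that also responds to light in the master clock, was called in 1 comparison, and the call ended without the libraries with cerebellar markers. It had 446, 777 and 861 normalized counts in dark, 769, 893 and 1025 in light, 669, 899 and 1058 in psilocybin-dark and 733, 834 and 913 in psilocybin-light mice. The 3 lowest of all 24 values were those of libraries 6 (446), 1 (474) and 12 (669), all with high cerebellar markers. Library 18, which also had high cerebellar markers, had 924, above the light median. Light mice were higher than dark mice by 0.38 ± 0.14 on the log2 scale (adjusted p = 0.0421), and by 0.14 ± 0.09 in the 20 mice, where the call was lost (adjusted p = 0.191). It also ended without any 1 of libraries 1, 6, 13, 14, 16 and 18, with adjusted p-values up to 0.0967. None of the other comparisons passed the test for Per2.

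**Figure D3:**
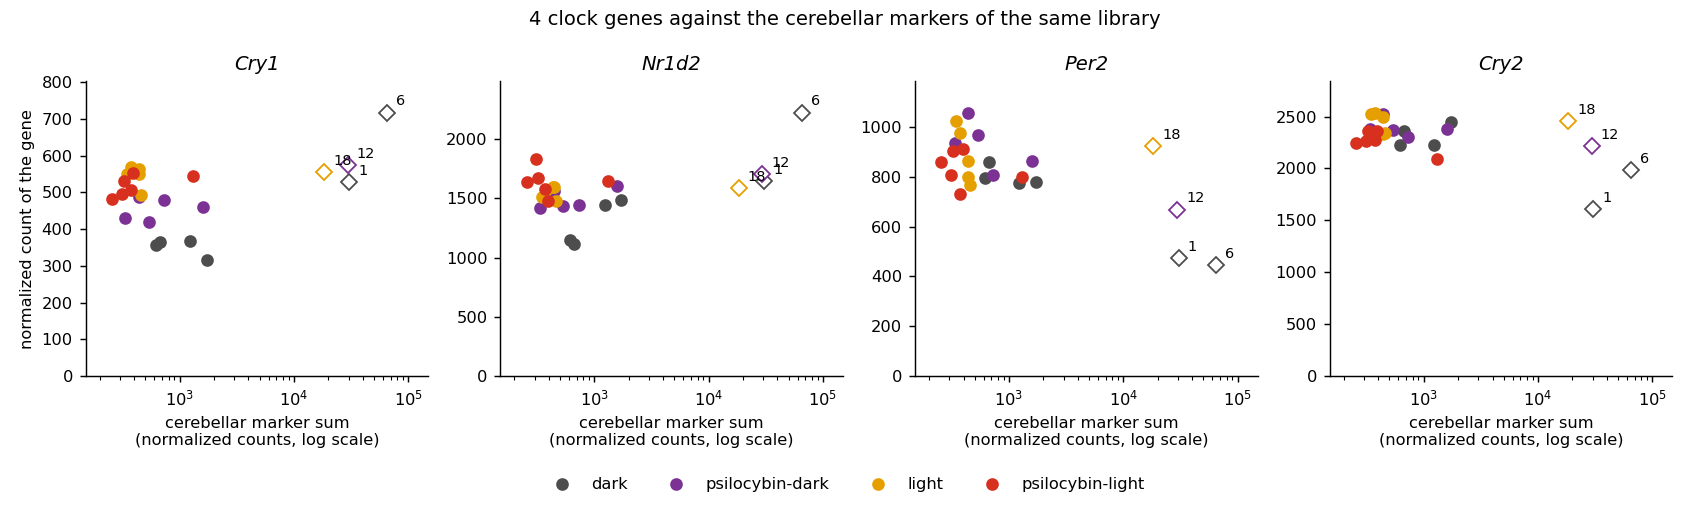
Normalized counts of Cry1, Nr1d2, Per2 and Cry2 (vertical axes, starting at 0) against the summed normalized counts of 6 cerebellar markers of the same library (horizontal axes, log scale), coloured by group. The 4 open diamonds are libraries 1, 6, 12 and 18, where Cry1 and Nr1d2 of the dark mice are above and Per2 and Cry2 of the dark mice are below the other mice of their group.

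Cry1 (chromosome 10, 84967560 to 85021252), a strong repressor of the CLOCK and BMAL1 dimer, was the member whose result changed most with these libraries. Its normalized counts were 528 and 717 in dark libraries 1 and 6, and between 316 and 369 in the other 4 dark mice. Psilocybin-dark mice had 421 to 489 except for library 12 with 576. Light mice had 493 to 569, library 18 among them with 555, and psilocybin-light mice 483 to 553. The dark values other than those of libraries 1 and 6 were thus below every mouse of the other 3 groups. Over all 24 mice Cry1 was not called in any comparison, and the log2 fold change of light against dark mice was 0.31 ± 0.14 (adjusted p = 0.0960). Without library 6 alone it was 0.50 and was called (adjusted p = 0.000400). With 20 mice it was 0.63 ± 0.06 (adjusted p = 2.26e-07), from a mean of 352 ± 24.6 (SD, n = 4) in dark to 546 ± 30.7 (n = 5) in light mice. Psilocybin-dark mice then differed from dark mice by 0.37 ± 0.06 (adjusted p = 9.55e-05) and psilocybin-light mice by 0.57 ± 0.06 (adjusted p = 2.65e-07). Psilocybin-dark mice were also lower than light mice (log2 fold change -0.26 ± 0.06, adjusted p = 0.0172), and psilocybin-light mice higher than psilocybin-dark mice (0.20 ± 0.05, adjusted p = 0.0175). Over all 24 mice with the hippocampal markers as a covariate, no difference of Cry1 from dark mice was called. The log2 fold changes were then 0.05 ± 0.19 in light (adjusted p = 0.904), -0.15 ± 0.19 in psilocybin-dark (adjusted p = 0.788) and -0.05 ± 0.20 in psilocybin-light mice (adjusted p = 0.903).

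Cry2 (chromosome 2, 92233894 to 92264474), the second cryptochrome, had its lowest values in dark libraries where Cry1 had its highest. It had 1610.3, 2228 and 2452 normalized counts in dark, 2329.9, 2475 and 2537 in light, 2214, 2372.5 and 2521 in psilocybin-dark and 2088, 2271 and 2365 in psilocybin-light mice. The 2 lowest values of all mice, 1610.3 and 1982, were those of libraries 1 and 6. Light mice were higher than dark mice by 0.19 ± 0.07 on the log2 scale (adjusted p = 0.0367), and by 0.08 ± 0.04 in the 20 mice, where the test was not passed (adjusted p = 0.161). The call also ended without any 1 of libraries 1, 6, 13, 14 and 16, with adjusted p-values up to 0.0695.

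Nr1d1 (chromosome 11, 98658752 to 98666188), which encodes REV-ERB alpha, was not called in any comparison, with either set of mice. Its medians were 1325, 1275, 1315 and 1237 normalized counts in dark, light, psilocybin-dark and psilocybin-light mice, within an overall range from 1039 to 1665. The intervals of its differences from dark mice reached from -0.25 to 0.09 for light, from -0.22 to 0.13 for psilocybin-dark and from -0.28 to 0.06 for psilocybin-light mice, so that log2 differences beyond these bounds lay outside them. Dark mice spread most widely, from 1059 in library 1 to 1665 in library 6.

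Nr1d2 (chromosome 14, 4230545 to 4266624), which encodes REV-ERB beta, had 1111, 1461 and 2221.5 normalized counts in dark and 1476, 1576 and 1593 in light mice. Psilocybin-dark mice had 1419, 1505 and 1702, and psilocybin-light mice 1479.9, 1641 and 1831. The highest value of all 24 mice was that of library 6, without which Nr1d2 was called higher in psilocybin-light than in dark mice (log2 0.27, adjusted p = 0.00940). No comparison passed the test over all 24 mice. In the 20 mice Nr1d2 was higher than in dark mice by 0.26 ± 0.07 in light (adjusted p = 0.00814), by 0.20 ± 0.07 in psilocybin-dark (adjusted p = 0.0375) and by 0.35 ± 0.07 in psilocybin-light mice (adjusted p = 0.000456). Over all 24 mice with the hippocampal markers as a covariate, these differences were negative and not called. They were -0.16 in light (adjusted p = 0.573), -0.19 in psilocybin-dark (adjusted p = 0.658) and -0.11 in psilocybin-light mice (adjusted p = 0.738).

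Dbp (chromosome 7, 45354512 to 45359627), the D-box activator, was highest in psilocybin-light mice. It had 419.6, 506 and 747 normalized counts in dark, 485, 591 and 619 in light, 392, 451 and 582 in psilocybin-dark and 631, 719 and 859.6 in psilocybin-light mice. Every psilocybin-light mouse was above every light and every psilocybin-dark mouse, and 2 dark mice (libraries 3 and 6, with 645 and 747) were within their range. Psilocybin-light mice were higher than psilocybin-dark mice 1.51-fold (log2 0.60 ± 0.12, adjusted p = 0.00540) and higher than dark mice 1.31-fold (log2 0.38 ± 0.12, adjusted p = 0.0168). With the hippocampal marker level as a covariate the difference from dark was 0.12 and was not called (adjusted p = 0.734). Against light mice the log2 fold change was 0.33 ± 0.12, which missed the threshold (adjusted p = 0.315) and did so in the 20 mice as well (0.36 ± 0.10, adjusted p = 0.0668). In order of level, psilocybin-dark, dark and light mice had means of 477 ± 81.7, 552 ± 121 and 572 ± 53.2, and no pair of these 3 differed beyond the spread.

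The interaction asks whether the effect of light under psilocybin differed from that without the drug, as the psilocybin-light minus psilocybin-dark difference less the light minus dark difference. It was called for 2 of 10 members, against 8.75% of all genes. For Bmal1 it was -0.69 ± 0.09 on the log2 scale (edgeR, adjusted p = 0.000880), the second smallest p of the 14464 genes, since light went with a higher level in mice without psilocybin and with a lower level under psilocybin. For Per3 it was -0.42 ± 0.10 (adjusted p = 0.0149), since the difference with light was 0.70 without and 0.28 with psilocybin. Dbp had an interaction of the other sign, 0.54 ± 0.18, that missed the threshold (adjusted p = 0.0555). Among the 20 mice the interaction was called for 5 of 10 members, against 26.4% of all genes. These were Bmal1 (-0.70 ± 0.08), Clock (-0.31 ± 0.08), Per3 (-0.51 ± 0.10) and Cry1 (-0.43 ± 0.08), all negative, and Dbp (0.59 ± 0.15), with adjusted p-values from 2.04e-05 to 0.0101.

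The hippocampal markers that were higher in dark mice moved with every comparison that used dark mice. With the mean log2 level of these markers as a covariate, Per3 was still higher in light than in dark mice (0.60 ± 0.11, adjusted p = 0.00460) and in psilocybin-light than in dark mice (0.70 ± 0.12, adjusted p = 0.00164), while for psilocybin-dark against dark mice 0.42 ± 0.11 was no longer called (adjusted p = 0.141). For Bmal1 the differences from dark mice became 0.13 ± 0.09 with light (adjusted p = 0.389) and 0.23 ± 0.09 with psilocybin (adjusted p = 0.321), and its interaction -0.51 ± 0.10 (adjusted p = 0.0939). Differences between psilocybin-light and psilocybin-dark mice, which use no dark mice, were called for the same 4 members as before. Between these groups the summed level of 4 astrocyte markers did not overlap, at 34988 to 39428 normalized counts in psilocybin-light and 40106 to 57640 in psilocybin-dark mice, and 1 of the 4 was called lower. Most of the sum was Slc1a2, whose own ranges overlapped (29816 to 34232 beside 33279 to 49981). The medians of Slc1a2, Aqp4 and Gfap were lower in psilocybin-light mice, and that of Aldh1l1 was higher (1311 beside 1222). In the interaction 2 of the 4 astrocyte markers were called, both negative, and the part of astrocyte content in these results was not tested. The covariate was 2.44 to 3.375 in dark libraries 1 to 5 and 0.92 to 1.80 in the mice of the other groups. Dark library 6, with 1.45, lay within the latter range. As the covariate separates most dark mice from the others, its part in the results cannot be told apart from that of the treatments.

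Levels between members can be compared per kilobase of the canonical transcript. In dark mice Cry2 had 518 ± 73.9 (SD, n = 6) normalized counts per kilobase and Nr1d1 493 ± 75.3, followed by Dbp with 300.3 ± 65.9 and Nr1d2 with 266 ± 71.5. Per1 (198 ± 36.7), Clock (184 ± 19.6), Bmal1 (152 ± 15.9), Cry1 (145 ± 50.3) and Per2 (118 ± 30.8) came next, and Per3 was lowest with 53.0 ± 4.58. In psilocybin-light mice Dbp had 392 ± 46.5 and Per3 92.6 ± 8.30 normalized counts per kilobase, with Per3 still the lowest.

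Around these 10 genes, 35 other clock genes were followed, all of which passed the filter. Of these, 15 were called between light and dark mice (9 higher, 6 lower; 31.9% of all genes were called), 10 between psilocybin-dark and dark mice (8 higher, 2 lower; 24.7%) and 19 between psilocybin-light and dark mice (10 higher, 9 lower; 38.4%). The count was 7 between psilocybin-light and psilocybin-dark mice (3 higher, 4 lower, beside 6.38% of all genes) and 0 in the comparisons of psilocybin-light (0.608%) or psilocybin-dark (0.456%) with light mice. Their median log2 fold change was 0.04 in light against dark mice, beside -0.01 for all genes. In the 20 mice the counts were 18 (12 higher, 6 lower), 16 (12 higher, 4 lower), 19 (11 higher, 8 lower) and 11 (4 higher, 7 lower), with 4 and 6 in the comparisons with light mice, where 42.3%, 37.6%, 47.3%, 16.7%, 2.25% and 5.61% of all genes were called. With the hippocampal covariate 5 were called in light against dark (1 higher, 4 lower), 0 in psilocybin-dark against dark and 5 in psilocybin-light against dark (0 higher, 5 lower), so that no gene given below as higher in a psilocybin group than in dark mice kept that call.

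**Figure D4:**
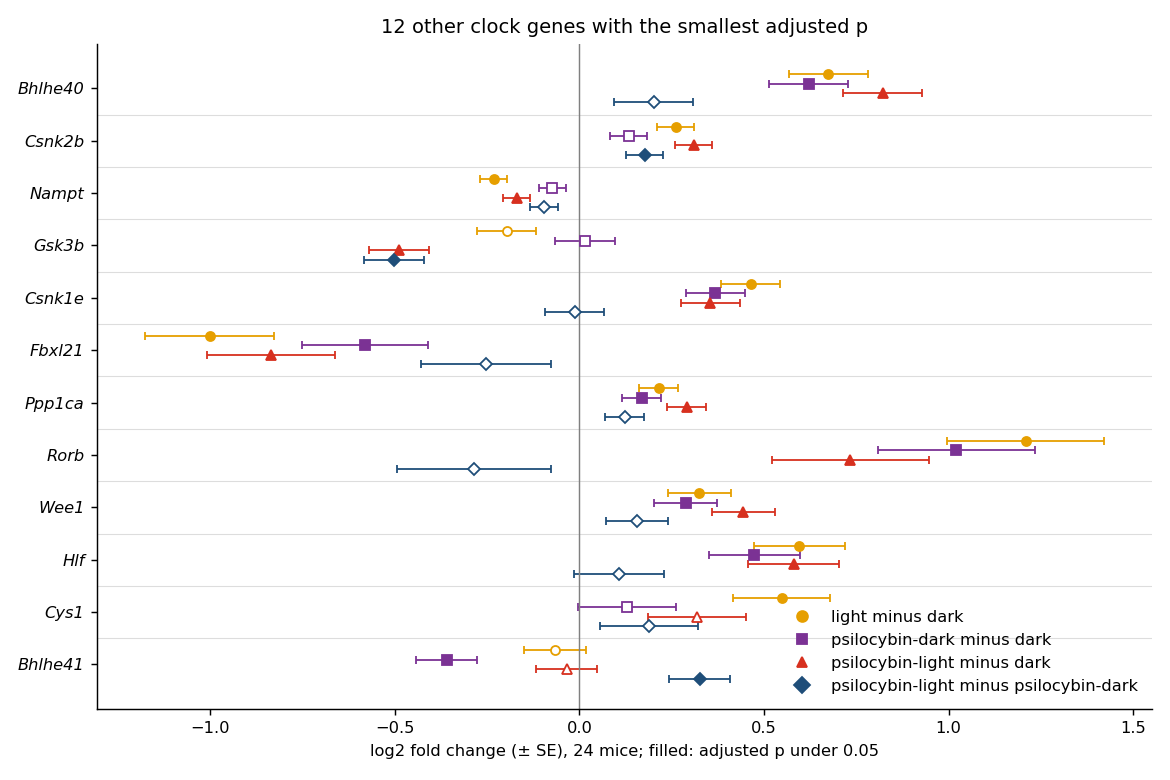
Log2 fold changes with standard errors (horizontal axis) of the 12 other clock genes with the smallest adjusted p, in 4 comparisons over 24 mice. Filled points had an adjusted p under 0.05. Bhlhe40, Csnk1e, Ppp1ca, Rorb, Wee1 and Hlf lie to the right of 0 in all 3 comparisons with dark mice, Fbxl21 lies to the left in these 3, and Gsk3b lies near -0.49 and -0.50 in the comparisons of psilocybin-light with dark and with psilocybin-dark mice.

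Among the repressors, Bhlhe40, which encodes DEC1 and competes for E-boxes, rose in all 3 comparisons with dark mice. Its lowest, median and highest normalized counts were 1167, 1593 and 1962 in dark, 2172, 2525 and 3062 in light, 1942, 2464 and 2945.5 in psilocybin-dark and 2459, 2865 and 3136 in psilocybin-light mice. The log2 differences from dark were 0.67 ± 0.11 in light (adjusted p = 6.7e-05), 0.62 ± 0.11 in psilocybin-dark (adjusted p = 0.000253) and 0.82 ± 0.11 in psilocybin-light mice (adjusted p = 5.07e-06). Its relative Bhlhe41 (DEC2) was instead lower in psilocybin-dark than in dark mice (-0.36 ± 0.08, adjusted p = 0.00305) and higher in psilocybin-light than in psilocybin-dark mice (0.33 ± 0.08, adjusted p = 0.0204).

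Of the ROR receptors, which activate Bmal1, Rorb was higher in light (log2 1.21 ± 0.21), psilocybin-dark (1.02 ± 0.21) and psilocybin-light mice (0.73 ± 0.21) than in dark mice. Rorb is also one of the 9 cortical markers, 6 of which were higher in each of these groups, and the part of tissue content in its result was not tested. Hlf, a D-box factor related to DBP, had means of 3388 ± 886 in dark, 5118 ± 520 in light, 4703 ± 308 in psilocybin-dark and 5066 ± 304 in psilocybin-light mice, with log2 differences from dark of 0.60, 0.47 and 0.58, all called.

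Among the kinases and phosphatases that set the stability of PER proteins, Csnk1e (casein kinase 1 epsilon) was higher than in dark mice by 0.46 ± 0.08 in light, 0.37 ± 0.08 in psilocybin-dark and 0.35 ± 0.08 in psilocybin-light mice. The phosphatase subunit Ppp1ca was higher by 0.22, 0.17 and 0.29, and the casein kinase 2 subunit Csnk2b by 0.26 in light and 0.31 in psilocybin-light mice, with 0.13 in psilocybin-dark mice not called. Gsk3b, a kinase that phosphorylates several clock proteins, was called lower than in dark mice for psilocybin-light mice, while light mice had a log2 fold change of -0.20 ± 0.08 that missed the threshold (adjusted p = 0.0660). It had 3660, 3931 and 4431 normalized counts in dark, 2711, 3674 and 4121 in light, 3735, 4055 and 4294 in psilocybin-dark and 2695, 2788 and 3197 in psilocybin-light mice. The log2 fold change of psilocybin-light mice was -0.49 ± 0.08 against dark (adjusted p = 6.75e-05), -0.50 ± 0.08 against psilocybin-dark (adjusted p = 0.00118) and -0.29 ± 0.08 against light mice, where the test was not passed (adjusted p = 0.114).

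Of the turnover genes, the F-box gene Fbxl21 was lower than in dark mice in all 3 groups, from a mean of 60.9 ± 13.6 normalized counts to 30.4 ± 5.89 in light, 40.8 ± 6.55 in psilocybin-dark and 34.1 ± 7.63 in psilocybin-light mice. Nampt, the enzyme of NAD+ synthesis that is under clock control, was lower in light (log2 fold change -0.23 ± 0.04) and psilocybin-light mice (-0.17 ± 0.04). Of the outputs, the cell cycle kinase Wee1 was higher by 0.33 ± 0.09, 0.29 ± 0.09 and 0.44 ± 0.09 in light, psilocybin-dark and psilocybin-light mice, and Cys1 by 0.55 ± 0.13 in light mice. The interaction was called for 4 of the 35, beside 8.75% of all genes: Rorb (-1.50 ± 0.30), Nfil3 (-0.55 ± 0.17) and Csnk1e (-0.48 ± 0.11) were negative and Bhlhe41 (0.39 ± 0.12) positive. Nfil3, the D-box repressor, was named after its value was seen. In the interaction 0 of the 35 were called with the hippocampal covariate and 14 (4 positive, 10 negative) in the 20 mice, beside 26.4% of all genes.

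Between mice of the same group, members were compared by the correlation of log2 levels after the group means were removed, with a two-sided permutation test within groups (100000 draws) over 45 pairs. The strongest pair was Per2 with Cry2, with Pearson's r = 0.81 (p = 0.000180, adjusted p = 0.00450) and Spearman's rho = 0.89 (p = 1e-05, the smallest the draws can give, adjusted p = 0.000450). Without the 2 mice farthest out in Per2, libraries 1 and 6, r was 0.71 (adjusted p = 0.0189). The r within single groups was 0.84 in dark, 0.94 in psilocybin-dark, 0.89 in light and 0.51 in psilocybin-light mice. Without libraries 1, 6, 12 and 18 r was 0.65, and its adjusted p of 0.190 over the 45 pairs missed the threshold. The other pair was Nr1d1 with Dbp, 2 known targets of CLOCK and BMAL1, with r = 0.74 (p = 0.000200, adjusted p = 0.00450) and rho = 0.65 (p = 0.00176, adjusted p = 0.0396). For this pair, r without the 2 mice farthest out in Nr1d1, libraries 1 and 6, was 0.58 and no longer passed the test (adjusted p = 0.177). Within single groups its r was 0.91 in dark, 0.77 in psilocybin-dark, 0.25 in light and 0.67 in psilocybin-light mice. No negative correlation passed the test, and none of the 45 pairs passed it in the 20 mice.

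**Figure D5:**
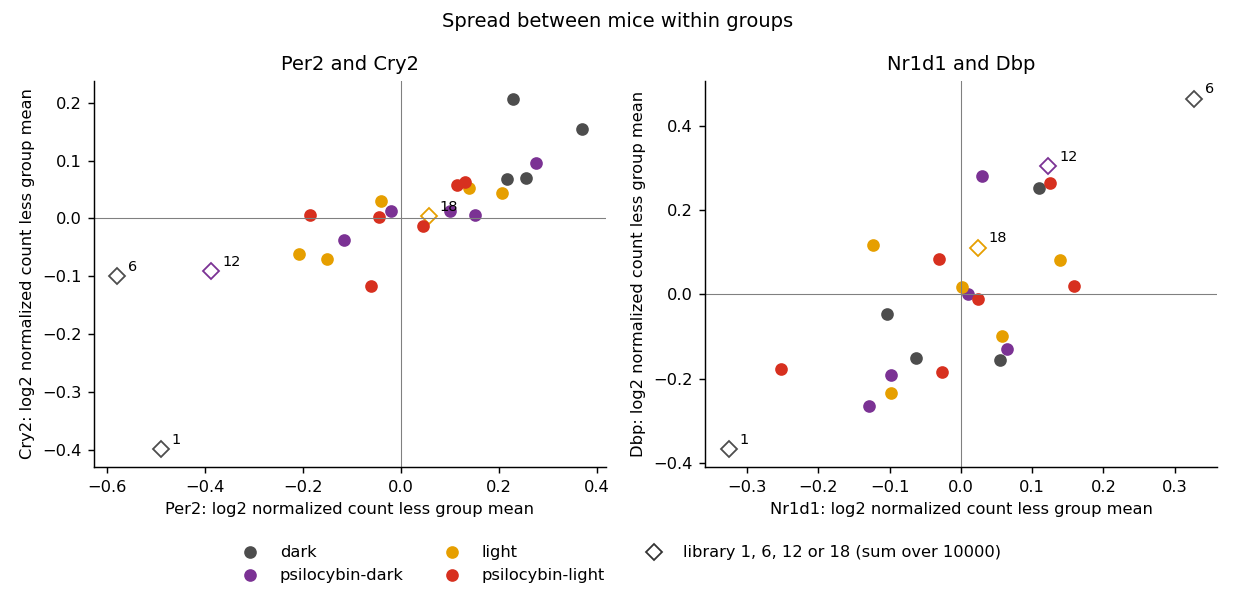
Log2 normalized counts of Per2 and Cry2 (left) and of Nr1d1 and Dbp (right) in each mouse, less the mean of its group, coloured by group, with libraries 1, 6, 12 and 18 as open diamonds. Per2 and Cry2 rise together with r = 0.81 over 24 mice, and libraries 1 and 6 lie at opposite ends for Nr1d1 and Dbp.

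The genes most like 3 of the members over the 24 mice, again after group means were removed, are given as a description among the 11109 genes whose mean count reached 100. All points share the libraries and their tissue content. Per1 was followed most closely by Midn (r = 0.89), Frmd6 (0.86) and Irs2 (0.84), and went against Tstd3 (-0.74), Ap3s2 (-0.72) and Zfp30 (-0.69). Bmal1 was most like Lrrc59 (0.78), Uvrag (0.76) and Brsk2 (0.74), and least like Tmem106c (-0.75), Vbp1 (-0.74) and Dpy30 (-0.69). For Dbp these genes were Fndc4 (0.81), Trps1 (0.78) and Mob1b (0.76), against Olfml2b (-0.82), Grip2 (-0.81) and Scg2 (-0.81).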

How the data were processed

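RNA from the visual cortex of 24 mice was enriched for poly-A RNA and sequenced, 1 library per mouse. The authors trimmed reads with cutadapt, mapped them with STAR and used htseq-count for counts per gene. These raw counts were deposited as they were, with no normalization by the authors. The methods name GRCm39 and the processing notes mm10. Versions, annotation release and strand setting were not given in the sources used here, so reads of overlapping antisense genes cannot be told apart.

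GENCODE vM39 named 54749 of 55414 genes. Tests were run with edgeR 4.0.16 under R 4.3.3 (TMM, quasi-likelihood test, 1 term per group, all 24 mice), two-sided, with Benjamini-Hochberg adjustment over 14464 genes. Log2 levels used a prior count of 2. The common biological coefficient of variation was 0.182. On simulated data for light against dark over 14206 genes, 77 of 87 genes changed by 1 on the log2 scale and 66 of 107 changed by 0.5 were called, with 4 unchanged genes. The p-values measure the spread between these mice.

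Members and lists were chosen with earlier results of these data known. All members are named, with up to 12 other clock genes of smallest adjusted p, and 3 genes most and least like Bmal1, Dbp and Per1. Alternatives were DESeq2 1.42.0 (size factors or Wald test), filterByExpr, no filter, the compared groups alone, 1 surrogate variable (sva 3.50.0), marker covariates and libraries left out. Figures used matplotlib 3.10.9.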

Additional observations from a re-analysis of the deposited data

Results flagged for a closer look

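Cry1 in light library 17 stood apart from its group, with 492.714 normalized counts beside 550.97 to 569.292 in the other 5 light mice. Its gap to the nearest mouse was 0.761 of the group's range, above Dixon's 95% critical value for 6 samples. It was the only one among 40 groups (10 genes in 4 groups), where chance flags about 1 in 20.

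The effect of light differed between mice with and without psilocybin for Bmal1, by an interaction of -0.69 on the log2 scale (edgeR, adjusted p = 0.000880), and for Per3, by -0.42 (adjusted p = 0.0149). Both had the same sign in each fit with 1 mouse left out and passed the threshold in all 24 of them. With the hippocampal marker level as a covariate neither was called, at -0.51 and -0.33.

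Cry2 had an interaction of -0.25 that missed the threshold (adjusted p = 0.108). Every psilocybin-dark mouse was above the dark mean of 2144 normalized counts, and every psilocybin-light mouse was below the light mean of 2446. Without libraries 1, 6, 12 and 18 the interaction was -0.14 (adjusted p = 0.0802). The dark mean was then 2318, above the lowest psilocybin-dark mouse (2299). The highest psilocybin-light mouse (2365) was still below the light mean, then 2445.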

How the results depend on the processing

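The number of members called depended on libraries and covariates more than on the scaling. In the order light, psilocybin-dark and psilocybin-light against dark, psilocybin-light against light, psilocybin-light against psilocybin-dark, psilocybin-dark against light and the interaction, leaving out 1 mouse gave 2 to 4, 2 to 5, 3 to 5, 0 to 1, 3 to 4, 0 to 1 and 2 to 3 members. With no filter on low counts 2 members were called in light against dark and 2 in psilocybin-light against psilocybin-dark, and with only the compared groups 2 in light against dark. With 1 surrogate variable the counts were 5 for psilocybin-dark and 5 for psilocybin-light against dark, 1 in each comparison with light of a psilocybin group, and 5 for the interaction. With the hippocampal markers as a covariate they were 2 for light and 0 for psilocybin-dark against dark, 1 in each comparison of a psilocybin group with light, and 0 for the interaction. The DESeq2 Wald test and the cerebellar covariate each gave 1 in those same comparisons with light. Without dark libraries 1 and 6 there were 5 for psilocybin-dark against dark, 1 and 1 against light, and 4 for the interaction. Without libraries 1, 6, 12 and 18 there were 5, 5, 1, 2 and 5 for psilocybin-dark and psilocybin-light against dark, psilocybin-light and psilocybin-dark against light, and the interaction. Of the 2 called correlations, 1 was called without libraries 1 and 6 and 0 without all 4 libraries. The cause was not tested.

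Signs changed for 1 called value, Clock in psilocybin-dark against dark (0.19), and otherwise for values that were not called, the largest of them Cry1 in psilocybin-light against dark (0.23). With the hippocampal covariate, the log2 fold changes against dark became -0.16 (Nr1d2) and -0.17 (Dbp) in light, -0.069 (Clock), -0.15 (Cry1) and -0.19 (Nr1d2) in psilocybin-dark, and -0.15 (Bmal1), -0.054 (Cry1), -0.034 (Cry2) and -0.11 (Nr1d2) in psilocybin-light mice, with interactions of 0.010 for Clock and 0.043 for Cry1. Without libraries 1 and 6, Cry2 in psilocybin-light against dark was -0.042 and the Nr1d2 interaction -0.15. With the cerebellar covariate, Cry2 in that comparison was -0.017, Per2 in psilocybin-dark against light 0.019, and the interaction -0.00042 for Nr1d1 and -0.0396 for Nr1d2. Without the 4 libraries, Clock in light against dark was 0.020, Cry2 in psilocybin-light against dark -0.024, Per2 in psilocybin-dark against light 0.059 and the Nr1d2 interaction -0.11. Leaving out 1 mouse turned the sign in light against dark of Clock (-0.078 to 0.0078), Nr1d2 (-0.031 to 0.19) and Dbp (-0.012 to 0.17), in psilocybin-dark against dark of Nr1d1 (-0.10 to 0.032) and Nr1d2 (-0.055 to 0.17), in psilocybin-light against light of Clock (-0.057 to 0.0035) and Nr1d1 (-0.061 to 0.027), in psilocybin-dark against light of Per1 (-0.046 to 0.12) and Per2 (-0.074 to 0.052), and in the interaction of Nr1d1 (-0.054 to 0.082) and Nr1d2 (-0.083 to 0.13), none of which was called.

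The cerebellar covariate and the fits without the 4 libraries were chosen after seeing the data. No paired analysis was possible because the labels number the libraries 1 to 24, so that groups share no replicate number. The data have 6 mice a group and a single time of day. In the simulation of light against dark, 66 of 107 log2 differences of 0.5 were called. Far fewer genes changed there than were called in the data (31.9% of all genes), so that share need not hold for the data.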
